A study of Bos taurus with 6 samples.

Results

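The mature miRNAs followed here are 4 that earlier work in other species reported as induced by luteinizing hormone (LH) in granulosa cells, namely bta-miR-132, bta-miR-212 and both arms of bta-miR-21 (bta-miR-21-5p and bta-miR-21-3p). They were taken by name, from all entries with these numbers, and are 4 of the 755 mature miRNA names in the files. Each of them is listed under 1 precursor, so its read count needed no choice among rows. Granulosa cells, the somatic cells around the oocyte and along the inner follicle wall, came from Simmental heifers in the second year of life that had been synchronized with a prostaglandin analogue (cloprostenol) and a GnRH analogue (buserelin) and were slaughtered on day 19 of the cycle. There were 3 libraries from preovulatory dominant follicles, the large follicles expected to ovulate, and 3 from anovulatory subordinate follicles of the same animals, the smaller ones that regress. The authors pooled RNA to make each library, and far fewer dominant than subordinate follicles were obtained, so the spread between libraries is that between pools and may not mean the same in both groups. LH was neither given nor measured in the sources used here, and the comparison is between follicle types, not between treated and untreated cells.

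The preovulatory LH surge acts on granulosa cells through the LH receptor and cyclic AMP, and turns them from estradiol-producing cells into cells that luteinize. MiR-132 and miR-212 are transcribed together from 1 locus that the cyclic AMP-responsive factor CREB activates in other tissues, and in mammals their 3p arms share a seed, the bases that choose target mRNAs. MiR-21 is an abundant miRNA of many cell types and is known for targeting mRNAs of pro-apoptotic and growth-restraining proteins, and its 5p arm is the usual guide strand while its 3p arm is the passenger strand. In the ARS-UCD2.0 gene table of RefSeq, MIR132 and MIR212 are neighbours on 1 chromosome with no listed gene between them, flanked by DPH1 and HIC1. MIR21 lies on the same chromosome next to VMP1, with TUBD1 on its other side. The names bta-miR-132 and bta-miR-212 carry no arm, so the arm that was counted cannot be read from them.

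With 1 value per miRNA, library depth ranged from 190385 to 311842 reads for dominant and from 306932 to 364125 reads for subordinate follicles. Levels are given as CPM, the usual read count scaled to library size, with edgeR's TMM factors applied. A count of 3 reads, taken here as the floor, equals between 8.86 and 13.9 CPM. Differences were tested with edgeR's quasi-likelihood test over 353 miRNAs, and a call needed a log2 fold change of 1 or more in size, an unadjusted p up to 0.05 and a Benjamini-Hochberg adjusted p up to 0.1. By these thresholds 21.5% of the miRNAs tested were called in either direction, 42 higher and 34 lower in preovulatory dominant follicles. Without the TMM factors the split was 47 higher and 23 lower, and the median log2 fold change of all miRNAs moved from -0.20 to -0.012.

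All 4 miRNAs were called higher in preovulatory dominant follicles, beside 11.9% of the miRNAs tested. Bta-miR-132 was higher by 63.6-fold and bta-miR-212 by 26.5-fold, while bta-miR-21-3p was higher by 3.75-fold and bta-miR-21-5p by 2.12-fold. By log2 fold change they took places 3, 9, 39 and 63 among the 353 miRNAs. Every library of preovulatory dominant follicles lay above every library of subordinate follicles for each of the 4, which was also the case for 18.4% of all miRNAs tested. Together the 4 took 4.49, 3.58 and 5.16% of the reads of dominant replicates 1, 2 and 3, and 2.46, 0.527 and 1.45% of those of the subordinate replicates.

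**Figure D1:**
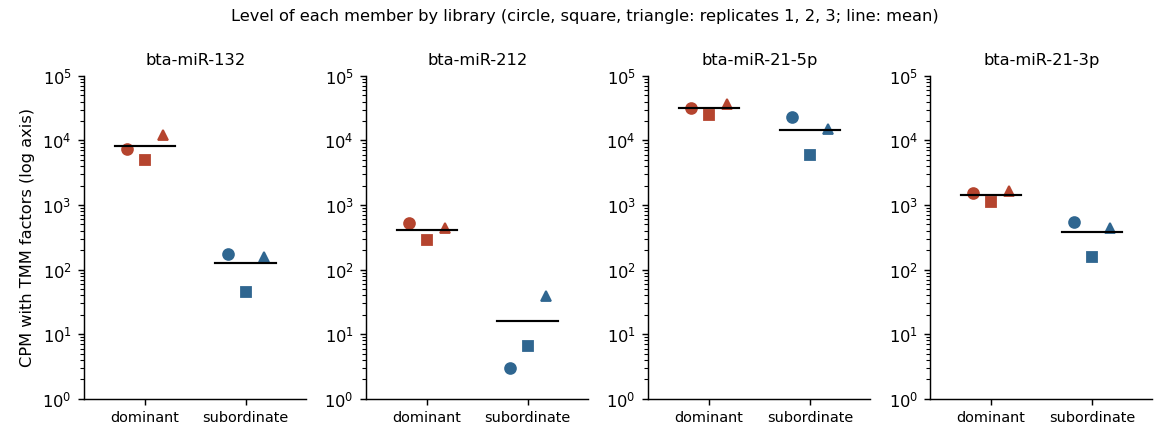
Level of each of the 4 miRNAs in the 3 libraries of preovulatory dominant (red) and the 3 of subordinate follicles (blue), as CPM with TMM factors on a log axis, with the group mean as a line. Bta-miR-132 sits between 4991 and 11962 CPM in dominant and between 45.3 and 177 CPM in subordinate follicles, while the highest subordinate and lowest dominant libraries of bta-miR-21-5p, at 23224 and 25184.5 CPM, lie close together.

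Bta-miR-132 had 2097, 1076 and 3757 reads in dominant replicates 1, 2 and 3, equal to 7399, 4991 and 11962 CPM. In subordinate follicles it had 60, 14 and 45 reads, equal to 177, 45.3 and 159 CPM. The lowest dominant library was 28.2 times the highest subordinate library, although the dominant libraries differed among themselves by 2.40-fold and the subordinate ones by 3.91-fold. Ranked by reads among all miRNAs of its library, it stood at places 24, 33 and 18 in the dominant libraries and at places 128, 174 and 131 in subordinate follicles. The means were 8117 ± 3541 CPM (SD, n = 3) and 127 ± 71.4 CPM (SD, n = 3), with a log2 fold change of 5.99 (SE 0.56, edgeR-adjusted p = 0.000128). In the alternatives tried the log2 fold change lay between 5.59 and 6.53. In those with at least 2 libraries per group the highest adjusted p was 0.00139 (edgeR).

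Bta-miR-212, which shares the locus with bta-miR-132, was much less abundant. It had 147, 62 and 140 reads in the dominant libraries, equal to 519, 288 and 446 CPM. In the libraries of subordinate follicles it had 1, 2 and 11 reads, equal to 2.95, 6.47 and 38.8 CPM. The first 2 of these counts lie below the floor of 3 reads, and replicate 3 alone lay above it. The lowest dominant library was 7.41 times the highest subordinate one, and the means were 417 ± 118 and 16.1 ± 19.8 CPM (SD, n = 3 each). The log2 fold change was 4.73 (SE 0.66, edgeR-adjusted p = 0.0012), and it lay between 4.21 and 4.95 in the alternatives other than the fit without subordinate replicate 3, where it was 6.37. Summed over libraries, 349 reads in dominant against 14 in subordinate follicles gave a ratio of scaled read rates of 28.6, with an exact (Clopper-Pearson) 95% interval from 16.8 to 52.8 that covers counting error only.

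The 5p arm of bta-miR-21 was the most abundant of the 4 in every library. It had 8991, 5430 and 11665 reads in the dominant libraries, equal to 31723, 25184.5 and 37141 CPM, and stood at places 6, 10 and 6 by reads. In subordinate follicles it had 7865, 1855 and 4267 reads, equal to 23224, 5999.5 and 15056 CPM, at places 10, 25 and 14. The groups did not overlap, but the lowest dominant library was only 1.08 times the highest subordinate one. The means were 31350 ± 5987 CPM (SD, n = 3) and 14760 ± 8616 CPM (SD, n = 3).

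For bta-miR-21-5p the log2 fold change was 1.09 (SE 0.41, edgeR-adjusted p = 0.0956), just past both thresholds. The call was lost without dominant replicate 1, 2 or 3 (edgeR-adjusted p = 0.202, 0.159 and 0.204) and without subordinate replicate 3 (0.181). It was also lost without subordinate replicate 2, the library with the lowest level, where the log2 fold change was 0.71 and so below the fold threshold, and it held without subordinate replicate 1 (1.57). Over the 14 alternatives tried the direction was the same in each. In those with at least 2 libraries per group the adjusted p ran from 0.0252 to 0.204 (both edgeR).

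The 3p arm of bta-miR-21 had 438, 244 and 514 reads in the dominant libraries, equal to 1545, 1132 and 1637 CPM. In subordinate follicles it had 187, 48 and 125 reads, equal to 552, 155 and 441 CPM. The lowest dominant library was 2.05 times the highest subordinate one, a wider gap than for the 5p arm, and the means were 1438 ± 269 and 383 ± 205 CPM (SD, n = 3 each). Its log2 fold change was 1.91 (SE 0.42, edgeR-adjusted p = 0.0127). Leaving out any single library kept the call, with log2 fold changes from 1.53 to 2.27.

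**Figure D2:**
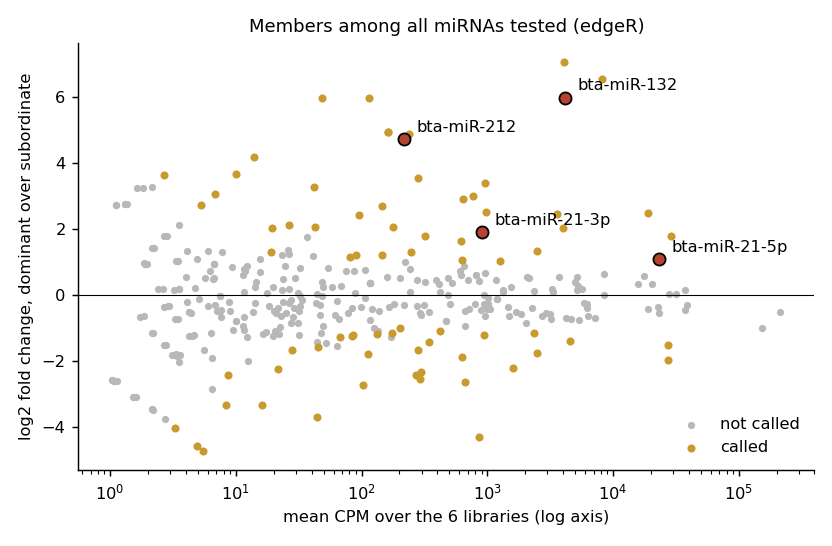
Log2 fold change of preovulatory dominant over subordinate follicles against the mean CPM over the 6 libraries (log axis) for the 353 miRNAs tested, with called miRNAs in yellow, others in grey and the 4 members in red. Bta-miR-132 (5.99) and bta-miR-212 (4.73) lie near the top of the plot, and bta-miR-21-5p (1.09) lies far to the right at the fold threshold.

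As both arms of bta-miR-21 come from 1 hairpin, their ratio within a library needs no normalization. The 5p arm held most reads in all 6 libraries. The 3p arm made up 4.65, 4.30 and 4.22% of the bta-miR-21 reads in the dominant libraries and 2.32, 2.52 and 2.85% in the subordinate libraries, means of 4.39 ± 0.226% and 2.56 ± 0.264% (SD, n = 3 each). The upper bounds of the 95% Wilson intervals in subordinate follicles reached 3.38%, below every lower bound in dominant follicles. These intervals cover counting error only.

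On the log2 scale, with 1 read added to each arm, the ratio of 3p to 5p was -4.44 ± 0.076 in preovulatory dominant and -5.24 ± 0.15 in subordinate follicles (SD, n = 3 each). The difference of 0.79 corresponds to a 1.73-fold higher share of 3p against 5p reads in dominant follicles (two-sided exact permutation test over libraries, p = 0.1, which is the floor for 3 libraries per group). With limma over the 14 pairs of arms that had a mean of at least 5 reads per library in each arm, the shift had a standard error of 0.27 and an adjusted p of 0.116, so it did not pass. The adjusted p was 0.0513 over all 26 pairs with both arms detected, 0.0467 without subordinate replicate 3, and ran from 0.0467 to 0.316 over the 9 alternatives.

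**Figure D3:**
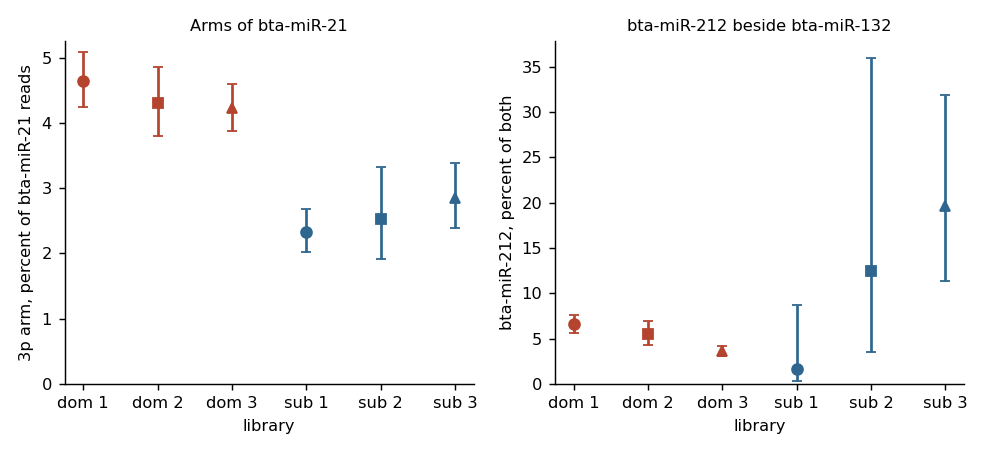
On the left, the 3p arm as a percentage of all bta-miR-21 reads and on the right bta-miR-212 as a percentage of the reads of bta-miR-132 and bta-miR-212 together, in each library (red, dominant; blue, subordinate), with 95% Wilson intervals as bars. The 3p share lies between 4.22 and 4.65% in dominant and between 2.32 and 2.85% in subordinate libraries, while the bta-miR-212 share of the subordinate libraries spreads from 1.64 to 19.6%.

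Among the 14 pairs, 1 (7.14%) passed at a false discovery rate of at most 0.1. This was bta-miR-2483, whose ratio of 3p to 5p moved the other way, by -1.61 (SE 0.41, limma-adjusted p = 0.0598). The shift of bta-miR-21 was the third highest of the 14, whose median shift was 0.0095, and 7 of the 14 shifts were above 0. The groups did not overlap in 4 of the 14 pairs (28.6%), bta-miR-17, bta-miR-199a, bta-miR-21 and bta-miR-2483. The pairs with higher shifts were bta-miR-99a (1.32, with overlapping groups) and bta-miR-17 (1.24), neither of which passed.

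**Figure D4:**
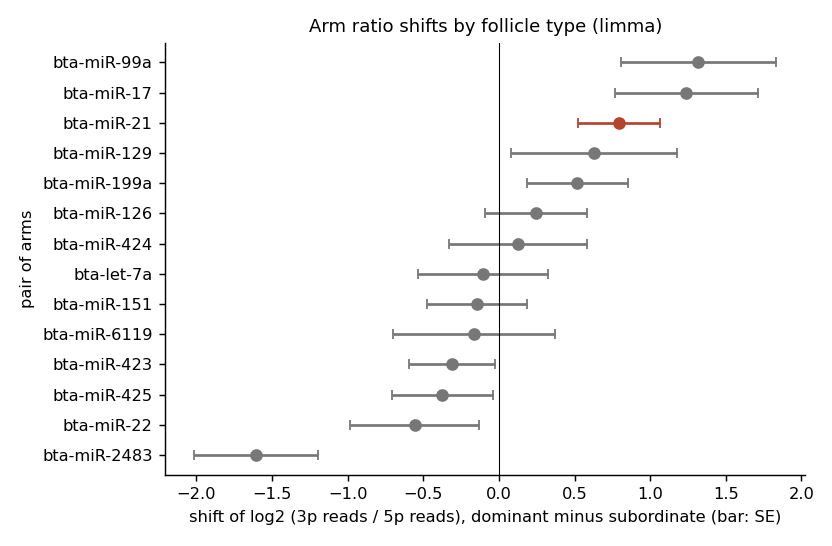
Shift of the log2 ratio of 3p to 5p reads between preovulatory dominant and subordinate follicles for the 14 pairs of arms, with limma's standard error as a bar and bta-miR-21 in red. The shift of bta-miR-21 is 0.79, below those of bta-miR-99a and bta-miR-17, and that of bta-miR-2483 is -1.61.

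Bta-miR-212 made up 6.55, 5.45 and 3.59% of the reads of bta-miR-132 and bta-miR-212 together in the dominant libraries. The subordinate shares were 1.64, 12.5 and 19.6%, but they rest on 61, 16 and 56 reads, and their Wilson intervals run from 0.290% at the lowest to 36.0% at the highest. The log2 ratio of bta-miR-132 to bta-miR-212 was 4.22 ± 0.47 and 3.06 ± 1.63 (SD, n = 3 each), a difference of 1.16 with overlapping groups (two-sided exact permutation test, p = 0.4). With 3 libraries per group this test cannot give a p below 0.1, and leaving out single libraries moved the value from 0.59 without subordinate replicate 3 to 2.09 without subordinate replicate 1.

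Between the loci the sizes lay further apart. The log2 ratio of bta-miR-132 to bta-miR-21-5p was -2.10, -2.33 and -1.63 in the dominant libraries, against -7.01, -6.95 and -6.54 in the subordinate ones. Bta-miR-132 held 16.5 to 24.4% of the reads of this pair in the dominant libraries and 0.749 to 1.04% in the subordinate ones. The means differed by 4.81 with no overlap (two-sided exact permutation test, p = 0.1, the smallest possible, and 0.15 after Benjamini-Hochberg adjustment over the 3 ratios compared here). This ratio had SDs of 0.36 in dominant and 0.26 in subordinate libraries, while the level of bta-miR-132 varied by up to 3.91-fold among subordinate libraries. The dominant SD was above that of the log2 CPM of bta-miR-21-5p alone (0.28). The subordinate ratios rest on 60, 14 and 45 reads of bta-miR-132.

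In preovulatory dominant follicles, replicate 2 had the lowest level of all 4 miRNAs, which come from 2 loci. The same library was lowest for 30.9% of the 194 miRNAs with a mean of 10 or more reads. Replicate 3 had the highest level of bta-miR-132, bta-miR-21-5p and bta-miR-21-3p, and replicate 1 that of bta-miR-212. Without TMM factors replicate 1 also took the highest place for bta-miR-21-3p, at 0.169 against 0.165% of reads. In subordinate follicles bta-miR-132 and both arms of bta-miR-21 had the order replicate 1, replicate 3, replicate 2 from high to low. Relative to the group mean on the log2 CPM scale, subordinate replicate 2 lay at -1.21 for bta-miR-132, at -1.09 for bta-miR-21-5p and at -1.10 for bta-miR-21-3p. Bta-miR-212 had another order there, with replicate 3 highest, but 2 of its 3 counts were under the floor.

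**Figure D5:**
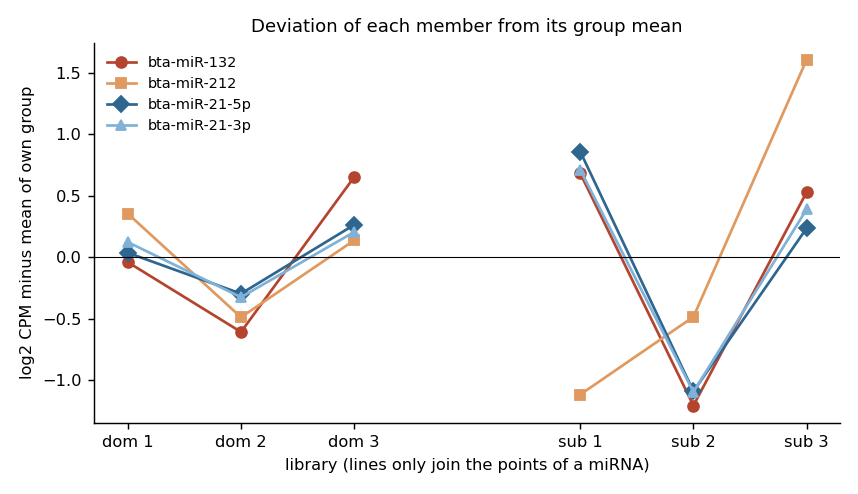
Log2 CPM of each member minus the mean of its own group, by library (dom, preovulatory dominant; sub, subordinate), where lines only join the points of 1 miRNA. In subordinate replicate 2, bta-miR-132 and both arms of bta-miR-21 lie at -1.21, -1.09 and -1.10, whereas bta-miR-212 is highest in subordinate replicate 3, at 1.61.

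Many orders over both groups are possible, so a small share with the order above tells little about bta-miR-132 and the arms of bta-miR-21. Of the 194 miRNAs that averaged 10 or more reads per library, 7 (3.61%) had the same order as these 3 in both groups, the other 4 being bta-miR-155, bta-miR-181c, bta-miR-324 and bta-miR-449a. In subordinate replicate 2, 7 of the 194 lay below 0.5 times each of the other subordinate libraries, and these included the same 3 miRNAs with bta-miR-155 and bta-miR-449a. Both sets were picked after their values were seen and are given as a description. The SD of log2 CPM among subordinate libraries was 1.05 for bta-miR-132, 1.43 for bta-miR-212, 0.997 for bta-miR-21-5p and 0.96 for bta-miR-21-3p, beside a median of 0.29 for the 194. In preovulatory dominant follicles the SDs were 0.63, 0.44, 0.28 and 0.29, beside a median of 0.28. Between 93.3 and 94.3% of the 194 miRNAs had a smaller SD than bta-miR-132 and each arm of bta-miR-21 among subordinate follicle pools. Among dominant ones, both arms of bta-miR-21 varied about as the median miRNA. For bta-miR-212 the subordinate share was 97.9%, but its SD there rests on 1, 2 and 11 reads and on the prior count. It reached the mean of 10 reads only through its dominant counts.

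Likeness of patterns was measured as the root mean square difference between log2 CPM profiles over the 6 libraries, each centred on its own mean. All profiles share the libraries and their scaling, and a miRNA with a like change between the groups scores as alike. Nearest to bta-miR-132 were bta-miR-182 (0.61), bta-miR-183 (0.76) and bta-miR-96 (1.08), the members of the miR-183 cluster, followed by bta-miR-129-3p (1.08) and bta-miR-212 (1.12), beside a median of 3.19 over the 193 miRNAs compared. Nearest to bta-miR-212 were bta-miR-96 (0.59), then bta-miR-129 and bta-miR-129-5p, names with identical counts (0.74), then bta-miR-182 (1.04) and bta-miR-132 (1.12). These distances rest in part on counts at, under or near the floor of 3 reads. In the subordinate libraries bta-miR-96 had 0, 0 and 1 reads and bta-miR-212 had 1, 2 and 11. Bta-miR-129-3p had 2, 1 and 0 reads there and bta-miR-129-5p had 2, 3 and 4. All of these reached the mean of 10 reads only through their dominant counts. Such distances depend on the prior count, and the order of the nearest profiles is not firm.

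The arms of bta-miR-21 had other neighbours. Nearest to bta-miR-21-5p were bta-miR-155 (0.37), bta-miR-21-3p (0.41), bta-miR-221 (0.41), bta-miR-222 (0.47) and bta-miR-450b (0.49), beside a median of 1.04. Nearest to bta-miR-21-3p were bta-miR-221 (0.40), bta-miR-21-5p (0.41), bta-miR-542-5p (0.41), bta-miR-450a (0.46) and bta-miR-22-3p (0.57), beside a median of 1.35. Between the 2 loci the differences were larger, 2.42 between bta-miR-132 and bta-miR-21-5p and 1.69 between bta-miR-212 and bta-miR-21-3p.

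Other miRNAs that earlier work linked to gonadotropins, steroid production, survival or the LH receptor of granulosa cells were read as a list. Of 17 such names 15 were tested, of which 2 were called higher and 2 lower in preovulatory dominant follicles, and their median log2 fold change was 0.081, beside -0.20 for all miRNAs tested. These counts lie near the shares called among all miRNAs tested, 21.5% in either direction and 11.9% higher, and are no result about the list. The higher ones rest on few reads. They were bta-miR-375, with 7, 6 and 9 reads against 0, 1 and 0 (edgeR-adjusted p = 0.00791), and bta-miR-122, linked by earlier work to the LH receptor, with 4, 1 and 3 reads against 0, 0 and 1 (edgeR-adjusted p = 0.0956). The lower ones were bta-miR-378, known to target the aromatase mRNA (-1.74, SE 0.38, edgeR-adjusted p = 0.0133), and bta-miR-224, which promotes estradiol release in mouse granulosa cells (-1.002, SE 0.24, edgeR-adjusted p = 0.0198). Bta-miR-222 had a log2 fold change of 0.81 and bta-miR-31 of -0.62, both inside the fold threshold.

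Marker miRNAs of other cells were read beside these results. In such bulk samples, fewer cells of a type and less RNA per cell cannot be told apart. The sum of 3 erythroid markers (bta-miR-451, bta-miR-486 and bta-miR-144) was 13090, 8246 and 1048 CPM in preovulatory dominant follicles and between 808 and 1530 CPM in subordinate ones, and 2 of the 3 were called higher (median log2 fold change of the list 2.45). Bta-miR-144 had between 0 and 5 reads. Bta-miR-132 and bta-miR-21-5p were highest in dominant replicate 3, the dominant library with the lowest erythroid sum. Bta-miR-212 was highest in dominant replicate 1, the one with the highest sum. Of the 194 miRNAs with a mean of 10 or more reads, 41.2% were highest in dominant replicate 3 and 26.3% in dominant replicate 1. These orders are a description, and the part of erythroid cells was not tested. A fit without dominant replicates 1 and 2 was added after the data were seen. It left 1 dominant library, which was assumed to vary like the subordinate ones. Its log2 fold changes were 6.53 for bta-miR-132 and 4.80 for bta-miR-212. For the arms of bta-miR-21 they were 1.31 (5p) and 2.07 (3p). With 1 dominant library this fit cannot show what part erythroid cells have in these levels.

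Of 5 leukocyte markers, 4 were tested, with edgeR-adjusted p between 0.450 and 0.897 and a median log2 fold change of 0.28. Bta-miR-142-3p was too rare to be tested. The sum over the list ranged from 1609 to 2399 CPM in dominant and from 854 to 2026 CPM in subordinate libraries. Its lowest value was in subordinate replicate 2, where each of the 4 tested markers had its lowest subordinate CPM. Bta-miR-132 and the arms of bta-miR-21 were lowest there too, as were 25.8% of the 194 miRNAs with a mean of 10 or more reads. Among dominant libraries bta-miR-142-5p (201 CPM) and bta-miR-150 (50.9 CPM) were lowest in replicate 3, where bta-miR-132 and both arms of bta-miR-21 were highest. There bta-miR-155 was highest too, and bta-miR-223 was lowest in dominant replicate 2. Within this list bta-miR-155, with 365, 206 and 581 reads against 512, 138 and 284, followed the library order of bta-miR-21-5p in both groups. Bta-miR-142-5p had 278, 118 and 63 reads against 142, 108 and 120, bta-miR-150 had 35, 22 and 16 against 30, 17 and 33, and bta-miR-223, a defining marker of myeloid cells, had between 1 and 5 reads. Both endothelial markers, the arms of bta-miR-126, summed to between 73.2 and 293 CPM in dominant and between 354 and 540 CPM in subordinate follicles, with log2 fold changes of -1.25 and -1.09 (edgeR-adjusted p = 0.113 and 0.105). The 5 stromal and theca markers had a median log2 fold change of -0.53, with bta-miR-214 called lower and sums of 17601 to 27821 against 21063 to 35748 CPM. Of 3 granulosa or gonad markers, bta-miR-202 was called higher (log2 fold change 1.795, edgeR-adjusted p = 8.15e-05), bta-miR-224 was called lower and bta-miR-383 was not called. Their sum, nearly all of it bta-miR-202, was high in every library, at 43653 to 46909 CPM in dominant and 11867 to 15486 CPM in subordinate follicles, and so moved with the follicle type as the 4 miRNAs did. The part of other cell types in the levels of the 4 miRNAs was not tested.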

How the data were processed

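Small RNA of granulosa cells was measured in 6 libraries, 3 per follicle type, grouped by the follicle type in the sample labels. Per the labels and the methods, the authors called bases with CASAVA 1.8.0, trimmed adapters and removed short or low-quality reads with Cutadapt and Seqtk, mapped with Bowtie to the bovine genome (UMD3.1) and counted reads on known bovine miRNAs of miRBase with miRDeep2. The deposited values are raw counts without normalization, 1 row per mature miRNA and precursor (906 rows). For a name with several rows the largest was used.

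MiRNAs detected (1 read or more) in 2 or 3 libraries of either group were tested with edgeR 4.0.16 (R 4.3.3; TMM, quasi-likelihood, follicle type as the only term, Benjamini-Hochberg). edgeR gives no standard error, so SE here means the absolute log2 fold change over the square root of F. Arm ratios were tested with limma 3.58.1 and by exact permutation over libraries (scipy 1.17.1). Depth was between 190385 and 364125 reads. The alternatives were DESeq2 1.42.0, other scalings and filters, summed precursor rows, a replicate block, left-out libraries and a pseudocount of 0.5 reads. Deviations of same-numbered libraries had correlations of 0.136, 0.378 and 0.408 over 194 miRNAs for numbers 1, 2 and 3. Unlike-numbered pairs ran from -0.416 to 0.193. The highest of these, dominant 2 with subordinate 1, lay above the pair numbered 1. The block is thus only a possible pairing, and the labels do not say what a number marks. P-values measure the spread between pools, which may come from the same animals. No library pair was alike within sampling noise. The fits were tested on simulated data in which every miRNA had the same spread. That simulation does not cover the wider spread of the members among subordinate libraries. The named miRNAs are the members, their 5 nearest profiles and fixed lists, all chosen with earlier results of these data known. A planned search for shared seeds and upstream motifs was not run, and sequences were not used here.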

Additional observations from a re-analysis of the deposited data

How the results depend on the processing

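Bta-miR-132, bta-miR-212 and bta-miR-21-3p kept their call with other scalings, filters and DESeq2 and without any single library. With the replicate block 71 miRNAs were called in place of 76, and no call of the 4 miRNAs or of the arm ratio changed. There bta-miR-21-5p had a log2 fold change of 1.27 (edgeR-adjusted p = 0.0252), and the arm ratio had a limma-adjusted p of 0.219. The call of bta-miR-21-5p was lost with median-of-ratios size factors (1.07), with summed precursor rows (1.06) and without any single library other than subordinate replicate 1. Its log2 fold change without single libraries ranged from 0.71 to 1.57, the latter without subordinate replicate 1, where it stayed called. Without dominant replicates 1 and 2, a fit added after the data were seen, 39 miRNAs were called, and bta-miR-21-5p (1.31) and bta-miR-21-3p (2.07) were not. The shift of the bta-miR-21 arm ratio passed over all 26 pairs of arms (0.79) and without subordinate replicate 3, and ranged from 0.72 to 0.87 without single libraries. The difference of the ratio of bta-miR-132 to bta-miR-212 lay between 0.59 and 2.09 without single libraries. These fits hold fewer libraries, and for the other settings the cause was not tested. Low counts, of 1, 2 and 11 reads, limit bta-miR-212 in subordinate follicles.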
